A study of Mus musculus with 2 samples.

Results

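The genes described here encode secreted proteins, among them several that act on microbes at the gut surface. They are the Reg lectins Reg1, Reg3b, Reg3g and Reg4, the ribonuclease Ang4, the serum amyloid A proteins Saa1, Saa2 and Saa3, the lipocalin Lcn2 and the cathelicidin Camp. They were chosen by symbol, as Reg lectins and other antimicrobial effectors, and not by a measured value. Earlier results of these data were known when they were chosen. They are 10 of the 43346 Ensembl genes in the deposited tables. Polyadenylated RNA came from the sigmoid part of the colon, just before the rectum, of 1 female of the inbred mouse strain C57BL/6J at 10 weeks of age. It was sequenced as 2 technical replicates of 1 biological replicate, here called library 2 and library 1 after their numbers in the labels. The labels name no treatment, no altered allele and no control animal, so there was 1 group and no comparison of conditions. Library 2 was prepared in 2015, after library 1 had been published, so the libraries differ in date and in anything else that changed with it. Every ± below is an SD over n = 2 technical libraries and says nothing of variation between mice.

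Library 2 held 20681574 expected counts, which are reads shared out among transcripts by a model, and library 1 held 25843064. In library 2, 5.59% of the counts were of genes on the mitochondrial chromosome (5.58 to 5.60%, 95% Wilson interval), against 24.1% in library 1 (24.0 to 24.1%). Levels are given in TPM, the share of transcripts after correction for length, of which nuclear protein-coding genes held 75.3% in library 2 and 31.3% in library 1. Since all TPM of a library add up to the same total, a smaller mitochondrial share leaves more of it to nuclear genes. The TPM rescaled to the sum over nuclear protein-coding genes is therefore given beside it. Markers were read beside the colon label, and all 8 epithelial, all 9 goblet cell and all 8 colonocyte genes of the lists had counts. Counts alone do not single out the colon, since all 8 hepatocyte and all 15 pancreatic acinar markers also had some. The colonocyte list summed to 16349 TPM in library 2 and 4008 TPM in library 1. For the hepatocyte list the sums were 41.4 and 4.29 TPM, and for the pancreatic acinar list 540 and 42.7 TPM, in the same order.

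Reg proteins are small C-type lectins. Reg3g and Reg3b bind bacterial cell walls or membranes and help to keep bacteria off the intestinal epithelium, and Reg4 marks the deep crypt secretory cells of the mouse colon. Ang4 is a secreted ribonuclease of the angiogenin family with microbicidal activity, first described in Paneth cells. Serum amyloid A proteins are acute-phase apolipoproteins made by the liver and, in mice, also by the intestinal epithelium in contact with microbes. Lcn2 binds bacterial iron carriers and Camp encodes the precursor of the mouse cathelicidin peptide, and both are abundant in neutrophils. The cytokine IL-22, acting through its receptor and STAT3, and NF-kappaB signalling are known inducers of many of these genes in epithelium.

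The Saa genes lie together on chromosome 7, and Saa1 and Saa2 are near-copies, so the sequences show what lets their reads be told apart. Their coding sequences, aligned without gaps over 366 bases before the stop codon, differed at 18 positions and were 95.1% identical. Saa1 and Saa3 were 74.3% identical. Of the 3 coding parts of Saa1, the one in exon 3 of 4 held the most differences from Saa2, 8 over 139 bases. That exon is at chr7:46741256-46741394 on the minus strand in Saa1 and at chr7:46753418-46753556 on the plus strand in Saa2 (GENCODE M21 on GRCm38). Capitals mark the bases that differ between the genes.
Saa1 exon 3: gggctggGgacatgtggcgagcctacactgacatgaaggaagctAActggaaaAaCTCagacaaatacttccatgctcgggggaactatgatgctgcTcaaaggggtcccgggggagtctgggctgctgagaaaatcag
Saa2 exon 3: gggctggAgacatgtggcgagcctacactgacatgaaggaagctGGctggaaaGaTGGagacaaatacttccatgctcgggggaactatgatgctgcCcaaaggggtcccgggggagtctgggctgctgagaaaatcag

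Of the 579 different 31-base words in the Saa1 transcript, 26.8% also occurred in transcripts of Saa2. The share of words found in any other gene was 30.1% for Saa1, 27.3% for Saa2, 13.8% for Ang4 and 5.71% for Saa3. For Ang4 the gene sharing most was the family member Ang5, with 9.28% of the words, and Ang5 itself was listed at 0 in both libraries. Reg3b and Reg3g shared 5 words with each other, and Reg1, Reg4, Lcn2 and Camp shared none with any other gene. The authors' posterior SD of the count was 0 for all 10 genes in both libraries, while it was above 0 in at least 1 library for 13.2% of all genes tested. No annotated gene of GENCODE M21 overlapped any of the 10 on either strand.

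Saa1 and Saa2 are 8.81 kb apart and are read in opposite directions, and their upstream sequences were also near-copies. The 250 bases before the RefSeq start sites (GRCm38.p6) aligned with 11 substitutions and 2 gap columns, an identity of 94.8%. For Saa1 and Saa3 it was 48.2%. They are printed because these near-identical promoters stand before genes with very different levels. The 43 bases next to the start, which are identical in both genes and lie in a first exon of another Saa2 transcript in GENCODE M21, are left out. Capitals again mark the bases that differ or have no counterpart. The Saa1 sequence is chr7:46743024-46743230 on the minus strand and the Saa2 sequence is chr7:46751583-46751789 on the plus strand.
Saa1 upstream: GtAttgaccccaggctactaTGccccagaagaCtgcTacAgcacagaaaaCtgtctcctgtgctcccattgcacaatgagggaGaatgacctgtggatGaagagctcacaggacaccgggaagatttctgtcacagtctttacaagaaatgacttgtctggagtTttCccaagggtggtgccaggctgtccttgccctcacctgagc
Saa2 upstream: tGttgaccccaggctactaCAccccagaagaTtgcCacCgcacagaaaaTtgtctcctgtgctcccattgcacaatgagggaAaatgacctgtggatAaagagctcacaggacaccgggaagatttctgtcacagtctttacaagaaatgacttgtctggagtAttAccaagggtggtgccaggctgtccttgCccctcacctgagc

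Both windows held a match to the C/EBP-like motif TTGCNNAA, searched on both strands, 182 to 175 bases before the start of Saa1 and 183 to 176 before that of Saa2. Such a match stood in 9.55% of the 250-base windows before 27025 RefSeq genes and before 4 of the 10 genes here, the others being Saa3 and Lcn2. The kappaB consensus was matched 91 to 82 bases before the start of Saa1 and not in the Saa2 window, and 2 of the 11 substitutions lie inside those 10 bases. It was matched before 3 of the 10 genes, Saa1, Reg3g and Lcn2, and in 9.28% of all windows. The STAT motif TTCNNNGAA was matched before Reg3b and Ang4, 2 of the 10, and in 7.18% of all windows. The motifs do not overlap each other where they were matched in Saa1. These matches describe letters in a window, and binding of a factor was not measured.

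Reg1, Reg3b and Reg3g lie within 1 cluster on chromosome 6, with 49.2 kb between Reg3b and Reg1 and 37.6 kb between Reg1 and Reg3g. Reg4 is on chromosome 3. Reg3b and Reg3g had 76.0% identical coding sequence, and every other pair of the 4 lectins had 49.6 to 57.7%. The 3 clustered genes each had the TATA box TATAAA on the coding strand close to the RefSeq start site. It began 30 bases before the start of Reg1, 29 before that of Reg3b and 27 before that of Reg3g. None of the other 7 genes had this box in its 250-base window, and 13.0% of all windows held it on either strand. Reg3g had another match on the opposite strand, 161 to 156 bases before its start. GENCODE M21 also lists transcripts of Reg1 and Reg3b that begin further upstream.

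The 10 genes fell into a high set and a low set. The high set was Saa1, Reg4 and Ang4, each at 62.8 TPM or more in both libraries, and it made 99.0% of the summed TPM of the 10 genes in library 2 and 98.2% in library 1. Each of the other 7 genes was at or below 14.6 TPM in either library. The sum over the 10 genes was 2618 TPM in library 2 and 474 TPM in library 1, a mean of 1546 ± 1516 TPM. Rescaled to nuclear protein-coding genes, the sums were 3475 TPM in library 2 and 1514 TPM in library 1. Because this is whole tissue, a lower level from fewer cells of a type and one from less RNA per cell cannot be told apart.

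**Figure D1:**
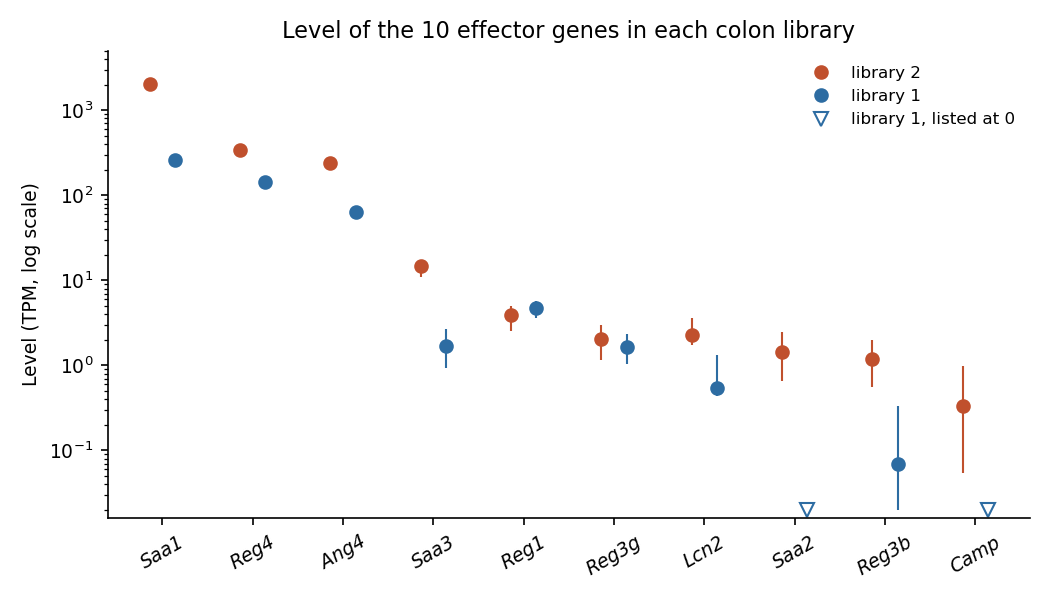
Level of each of the 10 genes in TPM on a log scale, with library 2 left of library 1 and genes ordered by their mean. Vertical lines are the authors' intervals for the posterior mean TPM, cut at the bottom of the axis, and open triangles mark genes listed at 0. Saa1, Reg4 and Ang4 stand apart from the other 7, which are all at or below 14.6 TPM.

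By mean TPM the order was Saa1, Reg4, Ang4, Saa3, Reg1, Reg3g, Lcn2, Saa2, Reg3b and Camp. Over the 2 libraries the ranges of neighbours in this order overlapped except between Ang4 and Saa3 and between Reg1 and Reg3g. Within each library, the deposited TPM intervals of neighbours did not overlap for the first 4 steps, from Saa1 to Reg1, although Reg1 stood above Saa3 in library 1. The intervals of Reg3g and Lcn2 overlapped in both libraries, as did those of Saa2 with Reg3b and of Reg3b with Camp.

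To describe how far the libraries disagreed on these genes, each gene whose expected count averaged 10 or more was compared between them by a two-sided exact binomial test after TMM scaling. A gene was called when it differed at least 2-fold with an adjusted p under 0.05 (Benjamini-Hochberg over 15711 genes). Intervals of a ratio are 95% counting intervals. The test compares 2 libraries of 1 mouse and not conditions. Of all genes tested, 65.0% were called, 36.9% as higher and 28.1% as lower in library 2, and the median log2 ratio, library 2 over library 1, was 0.12. Of the 10 genes, 7 passed the filter, and 3 of these were called: Saa1 and Saa3 as higher and Reg1 as lower in library 2. That is 42.9% of the 7, set against the 65.0% of all genes. Reg4, Ang4, Reg3g and Lcn2 were not called, and Reg3b, Saa2 and Camp had too few counts to enter. The median over the 7 was 0.77.

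**Figure D2:**
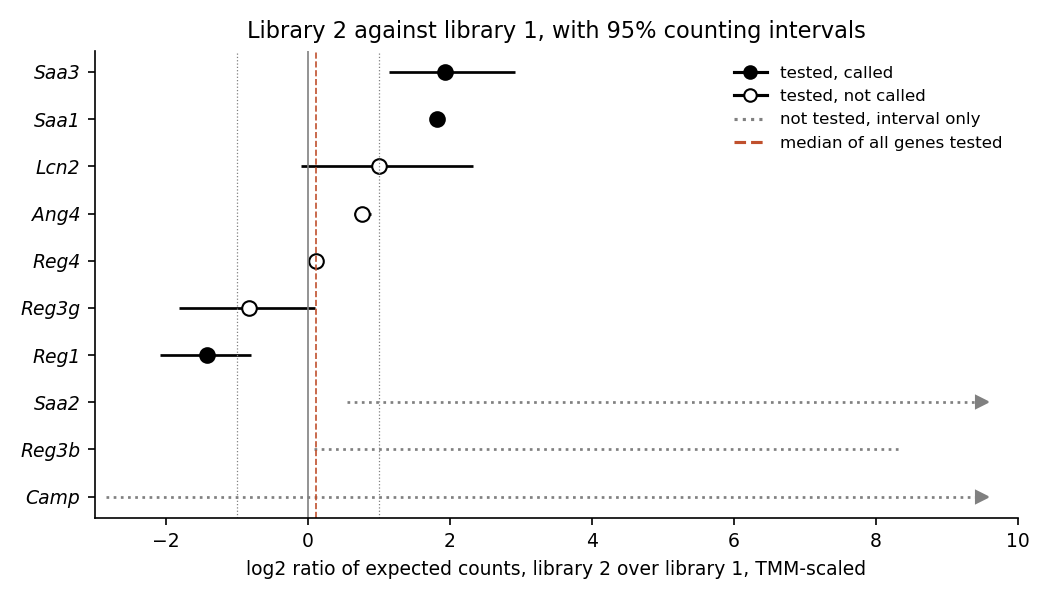
log2 ratio of expected counts, library 2 over library 1, after TMM scaling, for each gene, with its 95% counting interval. Filled points were called, open points were tested and not called, and dotted lines show the interval of genes not tested, with an arrow where the count of library 1 was 0. The dashed line is the median of all genes tested, 0.12, and dotted verticals mark a 2-fold difference. Saa1 and Saa3 lie right of these lines and Reg1 left of them.

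Reg4 was the highest of the 4 Reg lectins. It had 345 TPM (4171 counts) in library 2 and 143 TPM (2866 counts) in library 1, a mean of 244 ± 143 TPM. Library 2 was 2.41-fold higher in TPM, while the rescaled levels were 457 TPM in library 2 and 456 TPM in library 1. The TMM-scaled log2 ratio was 0.11 (0.04 to 0.18), which was not called. Among 21461 nuclear protein-coding genes Reg4 ranked 317 in library 2 and 377 in library 1. With the trend of the ratio with transcript length taken off, its log2 ratio was -1.35 and it was called lower.

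Reg4 is known in the deep crypt secretory cell, whose markers were read beside it. Of the 7 marker genes, 4 were called higher and 1 lower in library 2, or 71.4% beside 65.0% of all genes. They summed to 5867 TPM in library 2 and 772 TPM in library 1. The largest by mean TPM was Tff3, encoding a trefoil peptide, with 3460 TPM in library 2 and 4.91 TPM in library 1. Agr2, a protein disulfide isomerase for mucin, had 2268 TPM in library 2 and 727 TPM in library 1 and was not called. Of the 7, 4 stand in another list too, among them Tff3, Agr2 and Cd44, the gene called lower. Of those on this list only, Kit was not called (log2 ratio -0.06; 33.7 TPM in library 2 and 15.4 TPM in library 1). Dll1 (1.40) and Dll4 (3.72) were called higher. Markers of other secretory cells were measured too. The 7 enteroendocrine markers summed to 725 TPM in library 2 and 147 TPM in library 1, with 5 called higher and 2 lower, or 100%. For the 9 goblet cell markers the sums were 30551 and 4732 TPM in the same order, with 6 called higher and 0 lower, or 66.7%. The part of any of these cells in the value of Reg4 was not tested.

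Reg1 was the gene of the 10 with a lower TPM in library 2, at 3.89 TPM (33 counts) against 4.72 TPM (66 counts) in library 1. Reg1 is best known from the exocrine pancreas and from regenerating mucosa. Its mean was 4.31 ± 0.59 TPM and its log2 ratio was -1.42 (-2.08 to -0.81, adjusted p = 3.3e-06 by the exact binomial test). Rescaled, it had 5.16 TPM in library 2 and 15.1 TPM in library 1. The call ended with the GC trend taken off, at -0.31. It also ended with scaling by total counts, at -0.67, and by counts of nuclear genes, at -0.98. All 15 pancreatic acinar markers had a higher TPM in library 2, but so did all 9 goblet cell, 7 adipocyte and 5 red blood cell markers. A higher TPM in library 2 was also seen for 9 of the 10 genes, so this count is not particular to pancreas. The pancreatic markers summed to 540 TPM in library 2 and 42.7 TPM in library 1. Cela1, an elastase, made 338 TPM of this in library 2 and 5.0 TPM in library 1. Of the 15, 11 were called higher and 2 lower, or 86.7% called beside 65.0% of all genes, and their part in the value of Reg1 was not tested.

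Reg3g, the lectin that kills Gram-positive bacteria, had 2.03 TPM (18 counts) in library 2 and 1.65 TPM (24 counts) in library 1, a mean of 1.84 ± 0.27 TPM. Its log2 ratio of -0.83 (-1.81 to 0.10) was not called; with the length trend taken off it was -2.42 and called lower. Reg3b, its relative in the same cluster, had 1.2 TPM (10 counts) in library 2 and 0.07 TPM (1 count) in library 1. With 1 count the scaled ratio is known only to lie between 0.08 and 8.33 on the log2 scale. Reg4 was thus above Reg3g by 170-fold in library 2 and 86.7-fold in library 1, both in TPM. Of the remaining mouse Reg genes, Reg2 was listed at 0 in both libraries, Reg3a had 0 and 1 counts in library 2 and library 1, and Reg3d had 1 and 2 counts in the same order.

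Ang4 had 237 TPM (1803 counts) in library 2 and 62.8 TPM (787 counts) in library 1, a mean of 150 ± 123 TPM. Rescaled, it had 314 TPM in library 2 and 200 TPM in library 1. Its log2 ratio of 0.77 (0.65 to 0.89), or 1.70-fold, lay above the median of all genes but under the 2-fold threshold. Ang4 was called higher with total counts as the scale, at 1.52, and with the GC trend taken off, at 1.55. The same held with counts of nuclear genes, at 1.20, and of nuclear protein-coding genes, at 1.03. With the length trend taken off its ratio was -0.85.

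Ang4 was the most abundant angiogenin here. Of the 7 other angiogenins and secreted ribonucleases, Ang2, Ang5 and Ang6 were listed at 0 in both libraries, and 4 were tested. Of those 4, 25% were called, beside 65.0% of all genes. Ang, which encodes angiogenin, was called higher, with 39.0 TPM in library 2 and 4.15 TPM in library 1 (log2 ratio 2.23; 0.67 and not called with the length trend taken off), and the 3 others were not called. Rnase4, which shares a locus and first exons with Ang in mice so that their reads may be split between them, had 153 TPM in library 2 and 118 TPM in library 1. The Paneth cell defensins Defa17 and Defa30 were listed at 0 in both libraries, and Lyz1, the Paneth cell lysozyme, had 16.2 TPM in library 2 and 7.96 TPM in library 1. Itln1, another marker of the Paneth list, had 21 counts in library 2 and 3 in library 1 and was called higher. Mmp7 had 6 and 4 counts and Defa24 had 1 and 0, in the same order. Of the 6 Paneth markers 2 were tested and 1 was called, or 50% beside 65.0% of all genes. Lyz1 has a near-identical copy in Lyz2, so reads may be shared, although the posterior SD of its count was 0.59 in library 2 and 0 in library 1.

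Saa1 had the highest level of the 10 genes in both libraries. It had 2011 TPM (12324 counts) in library 2 and 260 TPM (2605 counts) in library 1, a mean of 1136 ± 1239 TPM. Library 2 stood above library 1 by 7.74-fold in TPM and by 3.51-fold after TMM scaling, a log2 ratio of 1.81 (1.75 to 1.87), and the gene was called higher. Rescaled, it had 2670 TPM in library 2 and 829 TPM in library 1. It ranked 28 among nuclear protein-coding genes in library 2 and 167 in library 1, and it alone made 76.8% of the summed TPM of the 10 genes in library 2 and 54.8% in library 1. The call held with the GC trend taken off, at 1.08, and ended with the length trend taken off, at 0.17.

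The 5 nuclear genes nearest to Saa1 over both libraries, by Euclidean distance of log2(TPM + 0.1), were Lgals3, Rpl13a, Atp5b, Ppia and Actg1. Their distances ran from 0.33 to 0.58. Lgals3, the galectin-3 gene, had 1692 TPM in library 2 and 224 TPM in library 1. With 2 values a gene, likeness covers level and library only.

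Saa2 had 1.45 TPM (9 counts) in library 2 and was listed at 0 in library 1, where 3 counts would be 0.296 TPM. Saa1 was above its near-copy by 1387-fold in library 2 and, against those 3 counts, at least 879-fold in library 1. The 8 bases in capitals in exon 3 of each gene are among those by which reads of the pair differ, and the posterior SD of the count was 0 for both.

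Saa3, which in mice is also made by macrophages and adipocytes, had 14.6 TPM (74 counts) in library 2 and 1.70 TPM (14 counts) in library 1, a mean of 8.16 ± 9.13 TPM. Its log2 ratio was 1.93 (1.14 to 2.91, adjusted p = 2.2e-07 by the exact binomial test), and it was called higher. Rescaled, it had 19.4 TPM in library 2 and 5.43 TPM in library 1. The TPM ratio of Saa1 to Saa3 was 138 in library 2 and 153 in library 1. With the length trend taken off Saa3 had 0.42 and was not called. Saa4, the constitutive family member of liver, was listed at 0 in both libraries.

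Other cells that can make serum amyloid A were measured by their markers. The 8 hepatocyte markers summed to 41.4 TPM in library 2 and 4.29 TPM in library 1, of which Ttr made 36.5 and 3.39 TPM. Alb, the albumin gene, had 1.79 TPM in library 2 and 0.43 TPM in library 1, and 2 of the 8 were below 0.1 TPM in both. The 9 macrophage markers summed to 646 TPM in library 2 and 125 TPM in library 1, with 5 called higher and 1 lower, or 66.7%, and the lysozyme gene Lyz2 made most of it. The 7 adipocyte markers summed to 287 TPM in library 2 and 57.1 TPM in library 1, with 3 called higher and 0 lower, or 42.9%, both beside 65.0% of all genes. No marker of these last 2 lists was at 0 in both libraries. Their part in the values of Saa1 and Saa3 was not tested.

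Lcn2 had 2.25 TPM (25 counts) in library 2 and 0.55 TPM (9 counts) in library 1, a mean of 1.40 ± 1.20 TPM. Its log2 ratio of 1.00 (-0.10 to 2.33) was not called. It was called higher with total counts as the scale, at 1.75, with counts of nuclear genes, at 1.43, and with counts of nuclear protein-coding genes, at 1.26. Its direction turned, to -0.82 with the GC trend and -0.53 with the length trend taken off. Camp had 0.33 TPM (2 counts) in library 2 and was listed at 0 in library 1, where 3 counts would be 0.116 CPM, counts scaled to the library's total. Camp was thus under the floor of 3 counts in both libraries.

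The neutrophil markers were read beside both genes. The granule genes Mpo and Ctsg were listed at 0 in both libraries, and 6 of the 14 were below 0.1 TPM in both. The list summed to 131 TPM in library 2 and 39.1 TPM in library 1, of which Ly6g alone made 120 and 33.2 TPM. Of the 14, 6 were tested, 2 of them called higher and 1 lower, or 50% called beside 65.0% of all genes. Those called higher were Csf3r, with 64 counts in library 2 and 5 in library 1, and Mmp9, with 50 and 13 counts. S100a8, a calprotectin subunit, was called lower with 2.60 TPM in library 2 and 3.66 TPM in library 1. That call ended with the GC trend taken off, at -0.42, and with total counts, at -0.80. It also ended with counts of nuclear genes, at -1.11, where the adjusted p was 0.088 by the exact binomial test. S100a9, the partner subunit of S100a8, had 3.74 TPM (18 counts) in library 2 and 0.77 TPM (6 counts) in library 1 and was not called. The part of neutrophils in the values of Lcn2 and Camp was not tested.

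Only Lcn2 and Reg3g had more than 1 annotated transcript in the deposited tables. The coding transcript ENSMUST00000050785 of Lcn2 took 91.8% of the gene in library 2 and 73.1% in library 1. The non-coding ENSMUST00000147219 took 8.18% in library 2 and 0% in library 1, and the retained-intron ENSMUST00000155830 took 0% in library 2 and 26.9% in library 1. These shares rest on 25 and 9 counts. The coding transcript of Reg3g took 98.1% in library 2 and 98.3% in library 1.

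**Figure D3:**
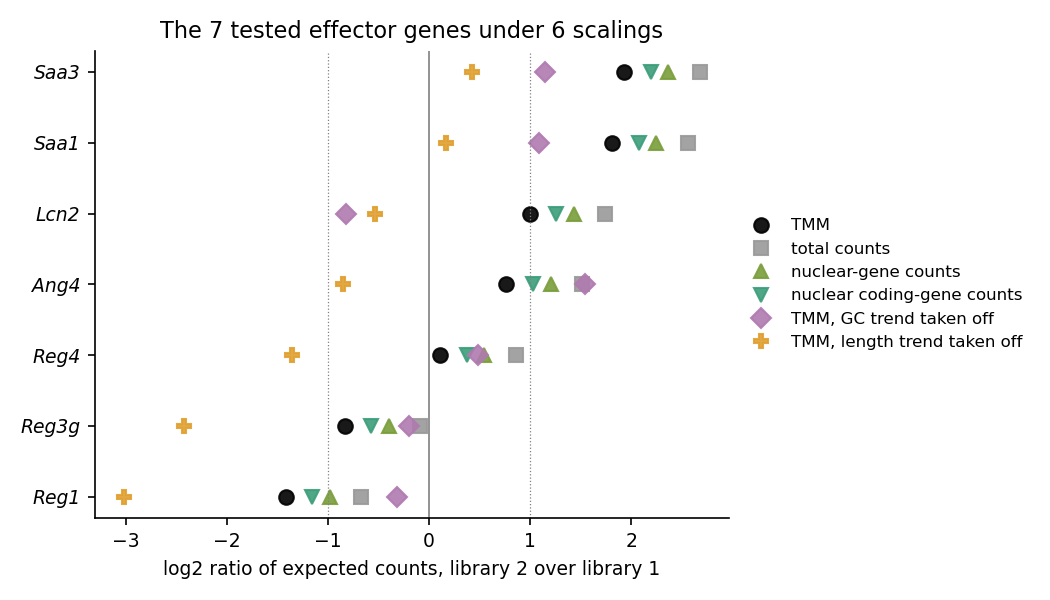
log2 ratio of expected counts, library 2 over library 1, of the 7 tested genes under TMM, 3 other scalings, and TMM with the GC or the length trend taken off. Dotted lines mark a 2-fold difference. The 3 other scalings move all genes right by the same amount, while the length trend moves all 7 left, Reg4, Ang4 and Lcn2 past 0.

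Length and base composition of the transcripts bear on all of these ratios. The 10 genes are short, with effective lengths of 347 to 837 bases as means of the libraries, while the median over all genes tested was 2308 bases. The lowess trend of the log2 ratio with effective length stood between 1.46 and 1.64 at the 7 tested genes. The trend with GC content ran from -1.10 at Reg1 (45.0% GC) to 1.82 at Lcn2 (53.9% GC). Scaling by total counts moved every ratio up by 0.75, the median of all genes included. With the GC or the length trend taken off, the ratios of Reg1 and Reg3g were below 0 and those of Saa1 and Saa3 above 0.

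Genes that act with these effectors were taken from 11 lists of 116 genes, which describe other antimicrobial proteins, the signals that induce them, and their partners. Of these, 80 passed the filter, 42 were called higher, 16 lower and 22 not, or 72.5% called, set against 65.0% of all genes, with a median log2 ratio of 1.11. With the GC trend taken off, 21 were called, 16 higher and 5 lower; of the 58 calls 13 held, 43 ended and 2 turned. Among the genes named in the paragraphs that follow, this ended the higher calls of Lypd8 (0.77), Il22ra1 (0.93), Nlrp6 (0.20) and Plxnb2 (0.61). It also ended the lower calls of Il18 (-0.28), Hif1a (-0.01), Cd44 (-0.30), Mptx1 (0.28), Nox1 (0.000855), Tlr4 (0.028) and Il33 (0.19). Higher calls among them that held became smaller. The log2 ratio went from 5.69 to 1.13 for Rela, from 5.53 to 1.02 for Spdef and from 4.89 to 1.09 for Pglyrp1. For Wfdc2 it went from 5.39 to 1.49 and for Zg16 from 3.28 to 2.61. With total counts as the scale 47 of the 58 held, and those of Mptx1 (-0.27), Nox1 (-0.60), Cd44 (-0.71) and Il33 (-0.65) were among the 11 that ended. These values stand beside a red blood cell list with 5 of 5 genes called higher, and their part was not tested.

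**Figure D4:**
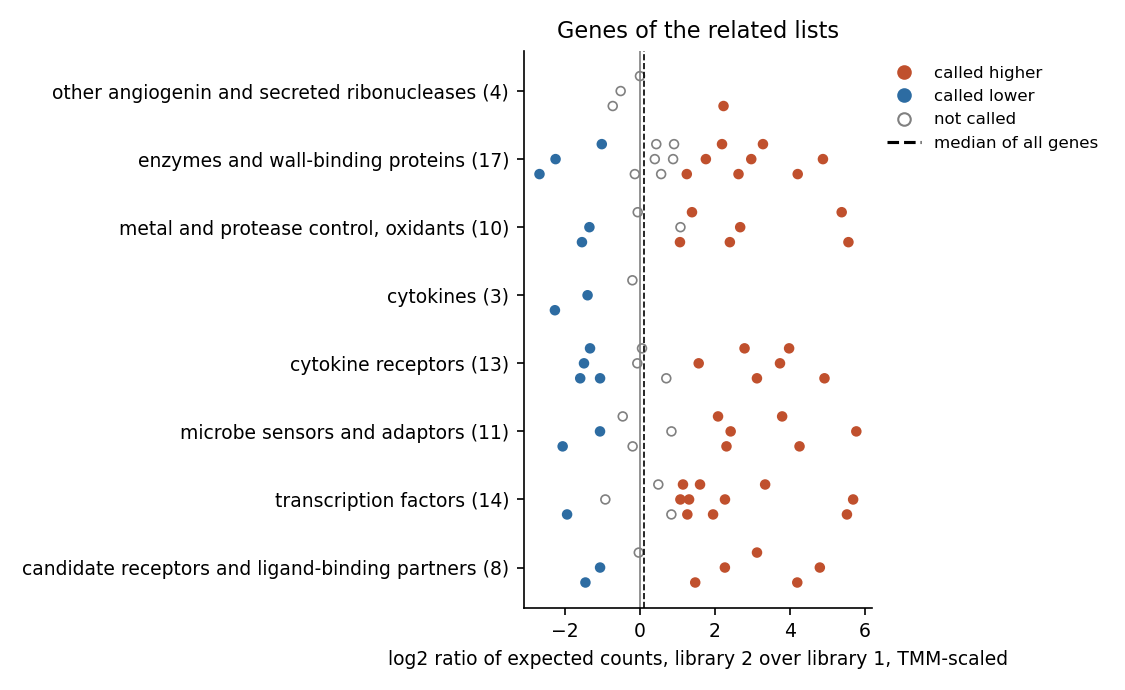
log2 ratio of expected counts, library 2 over library 1, after TMM scaling, for tested genes of the related lists, with the number tested in brackets. Each point is a gene, coloured by its call, and its height within a row carries no meaning. The dashed line is the median of all genes tested, 0.12. Called genes lie on both sides in most lists, and the cytokines have none called higher.

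Among the other antimicrobial proteins, the wall-binding and enzyme list was the most abundant. Of its 21 genes 17 were tested, 8 were called higher and 3 lower, or 64.7% called beside 65.0% of all genes. Zg16, a goblet cell lectin that binds Gram-positive bacteria, had 10145 TPM in library 2 and 472 TPM in library 1. Lypd8, which binds flagella, had 9734 TPM in library 2 and 1788 TPM in library 1, and both were called higher. The pentraxin Mptx1 had 2924 TPM in library 2 and 2674 TPM in library 1 and was called lower, at a log2 ratio of -1.02. Pglyrp1, a peptidoglycan-binding protein, was called higher with 284 TPM in library 2 and 4.30 TPM in library 1. Sprr2a2, of a family with near-identical copies, had 22149 TPM in library 2 and 1161 TPM in library 1. Its expected count was 185926 in library 2 and 74876 in library 1, and the posterior SD, 191 and 408, was small beside it. The gene was not called, at a log2 ratio of 0.88. Its TPM differed far more between the libraries than its count did, for a reason not tested, so its level is uncertain.

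Of the metal, protease and oxidant list 10 of 13 genes were tested. Of these, 6 were called higher and 2 lower, or 80% called beside 65.0% of all genes. Wfdc2, a secreted protease inhibitor, was called higher with 352 TPM in library 2 and 9.79 TPM in library 1. Pigr, the transporter of secretory IgA, had 1876 TPM in library 2 and 868 TPM in library 1 and was not called, at -0.06. Nox1, the colonic NADPH oxidase, was called lower with 15.1 TPM in library 2 and 17.1 TPM in library 1. All 8 defensins were too low to test and 6 of them were listed at 0 in both libraries.

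Most of the inducing cytokines were too low to test. Il22 had 1 count in each library, and Il17a, Il17c, Csf3 and Ifng were listed at 0 in both. Of 14 cytokines 3 were tested, and 2 of them were called lower, or 66.7% called beside 65.0% of all genes. Il18, made by the epithelium itself, had 173 TPM in library 2 and 379 TPM in library 1 and was called lower at -2.27. Il33, an alarmin of stromal and epithelial nuclei, was called lower with 3.45 TPM in library 2 and 4.06 TPM in library 1. Il1b, an inflammatory cytokine, had 3.08 TPM (48 counts) in library 2 and 1.94 TPM (41 counts) in library 1 and was not called.

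All 13 cytokine receptors passed the filter, with 6 called higher and 4 lower, or 76.9% called beside 65.0% of all genes. Il22ra1, the epithelial chain of the IL-22 receptor, was called higher with 36.2 TPM in library 2 and 1.01 TPM in library 1, and its partner chain Il10rb had 72.2 TPM in library 2 and 31.1 TPM in library 1 and was not called. Of the 11 sensors and adaptors 6 were called higher and 2 lower, or 72.7% called, beside the same 65.0%. Nlrp6, a sensor of the colonic epithelium, was called higher with 98.8 TPM in library 2 and 8.62 TPM in library 1, and Tlr4, the receptor for lipopolysaccharide, was called lower with 12.2 TPM in library 2 and 31.1 TPM in library 1.

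Of 15 transcription factors 14 were tested, 10 were called higher and 1 lower, or 78.6% called beside 65.0% of all genes. Rela, the NF-kappaB subunit, was called higher with 25.8 TPM in library 2 and 0.21 TPM in library 1, and Spdef, a factor of secretory cells, with 67.2 TPM in library 2 and 1.10 TPM in library 1. Hif1a was the gene called lower, with 49.9 TPM in library 2 and 84.2 TPM in library 1. Of 10 candidate receptors and partners 8 were tested, 5 were called higher and 2 lower, or 87.5% called, beside the same 65.0%. Plxnb2, the receptor described for angiogenin, was called higher with 176 TPM in library 2 and 2.70 TPM in library 1. Cd44, the hyaluronan receptor, was called lower with 20.1 TPM in library 2 and 20.2 TPM in library 1.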

How the data were processed

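Polyadenylated RNA of 1 mouse sigmoid colon was sequenced as 2 technical libraries. Per the text files deposited beside the tables, values derive from transcriptome alignments on mm10 with GENCODE M4. Aligner, quantifier and strandedness were not given in the sources used here. Per the file headers, the deposited tables hold the authors' expected counts, TPM, a posterior SD of the count (used as a signal of how far reads were shared), interval bounds of the posterior mean TPM (treated as a score), and the percent of its gene for each transcript. Only the 43346 Ensembl genes were used, and genes, starts and words came from GENCODE M21 and RefSeq.

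Computed here were TMM scaling (edgeR 4.0.16, R 4.3.3; library 2 over library 1 was 1.35) of counts rounded to whole numbers, a filter of a mean count of 10, the two-sided exact binomial test with Benjamini-Hochberg adjustment, and ratios with a prior count of 0.5. With 1 library on each side, the quasi-likelihood test of edgeR could not be fitted. Wilson and Clopper-Pearson intervals are at 95% and, like the floor of 3 counts, cover counting error only. The test was also run on simulated counts with counting error only. These held no GC or length trend and no further spread between libraries. That run therefore cannot show how the test behaves on these libraries. Trends were lowess fits with a fraction of 0.2 (statsmodels 0.14.6), and alignments were global (Biopython 1.88). The genes and lists were chosen with earlier results of these data known. All 10 genes are named. Of each related list, names were picked from up to 4 genes with the highest mean TPM and those below 0.1 TPM. They were also picked from up to 2 with the largest ratio among called genes with a mean count of 100. Of each marker list they were picked from the 3 highest and those at 0. Not all genes these rules take are named, and the rest are given in counts only. Among those left out are Ticam1 (log2 ratio 5.78), Il17rc (4.93) and Lgals4 (4.21). Csf3r, Mmp9, Kit, Dll1 and Dll4 are named beyond these rules.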

Additional observations from a re-analysis of the deposited data

How the results depend on the processing

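Under the 12 alternatives, the 7 tested genes gave 80 ratios, of which 60 kept direction and side of the threshold, 8 passed it, 8 no longer did and 4 changed sign. No filter, a mean count of at least 50, fold alone and a fold of 4 leave each ratio itself unchanged. Part of the 60 was therefore fixed in advance and is no measure of robustness. With scaling by total counts 4 genes of the 10 were called higher and 0 lower, and 5 list genes lower. Of all 15711 genes tested, 7490 were then called higher and 1836 lower. With counts of nuclear genes 4 were called higher and 0 lower, against 6695 of all genes higher and 2961 lower, and 8 list genes lower. With counts of nuclear protein-coding genes, an alternative chosen after seeing the data, 5 were called, 4 of them higher. Of all genes 9877 were called in this setting, 6346 of them higher. With a mean count of at least 50, 1 was called, 1 higher and 0 lower, because only 3 of them then enter. Of all genes 12982 entered and 8529 were called. With a fold of 4, 0 were called, 0 higher and 0 lower, against 5310 of all genes, 1166 of them lower, and 34 list genes, 4 of them lower. With the GC trend taken off 0 were called lower, and the calls were 3653 over all genes (1936 higher, 1717 lower) and 21 over the lists (16 higher, 5 lower). With the length trend taken off 0 were called higher and 3 lower, against 4921 of all 15711 genes higher and 5458 lower. Signs changed with the GC trend taken off for Lcn2 (-0.82), Il1b (0.58), Il33 (0.19), Lyz1 (0.30), Mptx1 (0.28), Nox1 (0.000855), Rnase4 (0.16) and Tlr4 (0.028). With the length trend taken off they changed for Reg4 (-1.35), Ang4 (-0.85), Lcn2 (-0.53), Agr2 (-1.11), Il10rb (-0.61), Ly6g (-0.82), Lypd8 (-0.14), Lyz2 (-0.34), Pigr (0.035) and S100a9 (-0.39). With total counts they changed for Il1b (0.55), Lyz1 (0.61), Pigr (0.69) and Rnase4 (0.021). With nuclear counts they changed for Il1b (0.23), Lyz1 (0.30) and Pigr (0.37), and with nuclear protein-coding counts for the same genes (0.060, 0.12 and 0.20). The cause was not tested. DESeq2 size factors, the absence of a filter, a prior count of 2, calls by fold alone and posterior mean counts changed no count of calls by over 1.5 times.

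The summed level of the 10 genes was 474 to 2618 TPM with 1 library left out. No paired analysis was possible because there was 1 group. Depth limits Reg3b, Saa2 and Camp, at 10 counts or fewer in each library. No value here covers variation between mice.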
